A study of Mus musculus with 16 samples.

Results

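Guanylate-binding proteins (GBPs) and immunity-related GTPases (IRGs) are interferon-induced enzymes that cells turn against microbes living inside them, and 10 of their genes were followed here in murine gingival fibroblasts (mGF). The genes were Gbp2, Gbp3, Gbp5, Gbp6, Gbp7, Gbp9, Igtp (also called Irgm3), Irgm1, Irgm2 and Iigp1 (also called Irga6), 10 of 56941 genes in the deposited count table. They were chosen by gene symbol with their levels in all 4 conditions already in view, so their differences between conditions are given as a description: calls are stated beside the share called over all tested genes and support nothing. All 10 passed the filter on low counts.

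The cells were primary fibroblasts grown from gum explants of wild-type C57Bl6 mice aged 3 to 6 months and used at passages 2 to 8. They were kept for 24 h in 1 of 4 conditions, with 4 libraries in each. BSA (control) cells received 200 µM of the albumin vehicle, IL-1β cells received the vehicle with 1 ng/mL of the cytokine, palmitate cells received 200 µM of the saturated fatty acid bound to BSA, and palmitate + IL-1β cells received the fatty acid and the cytokine together. The sources do not say whether libraries of a condition came from separate cultures or mice, so errors and p-values measure only the spread between these libraries, which may be technical. Gene counts per library ran from 21234789 to 92752515, and palmitate replicate 10 was the deepest, followed by 35329711 in the next library. A floor of 3 counts equals 0.0331 to 0.146 CPM across libraries, where CPM is the read count scaled to a common library total, and floors and counting intervals cover counting error only.

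The labelled cell type was checked against marker genes. Markers of fibroblasts, such as the collagens, summed to 46375 to 57848 CPM in every library. Single markers shifted under that sum. Of 10, 2 were called higher and 4 lower with palmitate than with BSA, where 37.3% of all tested genes were called in either direction. Their log2 differences ran from -0.31 to 0.54 with palmitate and from -0.68 to 0.53 with both agents. Markers of macrophages summed to 4.26 to 6.19 CPM in BSA, 5.16 to 5.47 in IL-1β, 5.73 to 7.27 in palmitate and 5.89 to 7.91 with both, and their part in the results was not tested. Markers of T or NK cells summed to 0.295 to 0.944 CPM, those of endothelium to 1.42 to 2.25 CPM and those of epithelium to 0.164 to 0.728 CPM. Of the 7 macrophage markers, Adgre1 had 0 counts in all 4 palmitate libraries and Itgam in all BSA and IL-1β libraries. The others had reads in every condition, and with both agents all 7 did. Of the 4 that passed the filter on low counts, Csf1r and Cd68 were not called in any comparison with BSA. Cd14, also carried by other cells, was called higher with palmitate (log2 difference 1.24 ± 0.16, edgeR adjusted p = 2.3e-07) and with both agents (1.03 ± 0.17), and Lyz2 was called lower with palmitate (-0.79 ± 0.28, edgeR adjusted p = 0.0255). Cd14, Lyz2, Adgre1, Itgam, Csf1r and Cd68 were named after their values were seen. Markers of T or NK cells with 0 counts in all libraries of a condition were Cd3e, Cd3g and Ncr1 in BSA and Cd3g and Ncr1 in IL-1β. In palmitate they were Cd3e, Cd3g, Klrb1c, Ncr1 and Nkg7, and with both agents Cd3e and Ncr1. The rest of the 6 had reads in the condition concerned. Of the 6 markers of T or NK cells only Trac passed the filter on low counts. Trac was called lower with both agents than with BSA (-1.26 ± 0.32, edgeR adjusted p = 0.00154). These markers of T or NK cells were also named after their values were seen.

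GBPs are large GTPases that assemble on microbes and on the vacuoles that hold them, where they help to expose bacterial components to caspases and to lysosomal pathways. IRGs fall into effectors such as Iigp1, which attack the vacuole membrane, and the 3 Irgm proteins, which sit on the cell's own membranes and hold the effectors inactive there. Interferons switch on both families through transcription factors that include the IRF family, and IL-1β acts on another route, through NF-κB.

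Most of the genes lie in clusters on assembly GRCm39. Gbp5 (chr3:142199739-142228105), Gbp7 (chr3:142236044-142255910), Gbp3 (chr3:142265731-142278979) and Gbp2 (chr3:142326349-142343779) lie in this order on chromosome 3. Gbp9 (chr5:105224332-105287452) and Gbp6 (chr5:105418568-105443751) lie on chromosome 5. Igtp (chr11:58089840-58098417), Irgm2 (chr11:58090444-58113615) and Irgm1 (chr11:48752795-48763164) lie on chromosome 11. Gene ends are those of GENCODE vM39.

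Letters that interferon-activated factors are known to bind were sought near the RefSeq start sites, in the 300-base promoter entries of assembly GRCm38.p6, which exist for 7 of the 10 genes. Gbp6, Gbp9 and Iigp1 had no entry. The interferon-stimulated response element (ISRE, searched on both strands as GAAA, any 2 bases and GAAA) was present in 7 of 7 entries, against 3.44% of all 32851 promoters in the table. The following 30-base stretches, 5′ to 3′ on the strand of each gene, are shown because they hold these matches. Capitals mark ISRE letters and, where the stretch holds it, the gamma-activated site (GAS, searched as TTCNNNGAA).
Gbp2 (chr3:142326355-142326384, plus strand): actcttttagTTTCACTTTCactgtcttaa
Gbp3 (chr3:142265753-142265782, plus strand): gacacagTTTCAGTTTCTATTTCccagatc
Gbp5 (chr3:142202520-142202549, plus strand): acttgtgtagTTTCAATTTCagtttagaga
Gbp7 (chr3:142236034-142236063, plus strand): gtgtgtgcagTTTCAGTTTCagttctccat
Igtp (chr11:58090333-58090362, plus strand): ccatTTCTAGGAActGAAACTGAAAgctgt
Irgm1 (chr11:48762255-48762284, minus strand): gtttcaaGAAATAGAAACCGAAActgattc
Irgm2 (chr11:58105724-58105753, plus strand): ccatTTCCAGGAActGAAACTGAAAgctgt

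These positions are on GRCm39, where each stretch matched its chromosome exactly 1 time. In the 4 GBP entries the ISRE letters read on the opposite strand, and in the 3 Irgm entries on the strand of the gene. Gbp3 and Irgm1 each held 2 overlapping ISRE matches. The stretches of Igtp and Irgm2 were identical in 29 of 30 bases, the exception being T8C, counted from the 5′ end of the stretch with the Igtp base first. All 7 stretches lie before the RefSeq start, but within GENCODE vM39 gene bounds (20 of 30 bases for Gbp7), and 16 to 30 bases of 6 of them (all but Irgm2) fall in an annotated untranslated region of the same gene. GAS letters were in 4 of 7 entries (Gbp5, Gbp7, Igtp and Irgm2), against 8.30% of all promoters.

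The κB site, bound by the NF-κB factors that IL-1β activates, was searched on both strands as GGGAA, any base and TTCC, and was in 2 of 7 entries, against 0.341% of all promoters. The match of Gbp5 lay 77 to 68 bases before the start and is shown in capitals because Gbp5 gave the largest response to IL-1β below. The match of Gbp2 lay 8 to 17 bases after the start. Of the 24 other GBP, IRG and related genes described below, 10 had an entry. The ISRE was in 6 of those 10, GAS letters were in 4 and the κB site was in 0. Among them Tgtp1, which rose 7.32-fold with IL-1β, had no κB match. A match describes letters only and is not evidence of binding, and a link between matches and responses was not tested.
Gbp5 (chr3:142202608-142202637, plus strand): ggagaggaaaGGAAATTCCCagggctggcc

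Palmitate raised all 10 transcripts. The summed level of the 10 was 63.1 ± 0.987 CPM in BSA, 128 ± 6.99 in IL-1β, 871 ± 51.5 in palmitate and 957 ± 109 with both (mean ± SD, n = 4 libraries each). All 10 genes were called higher with palmitate than with BSA (edgeR, adjusted p under 0.05), where 19.8% of 16306 tested genes were called higher. All 10 also rose by more than 2-fold and passed, as 3.58% of tested genes did, and in all 10 every palmitate library lay above every BSA library, as in 19.5% of tested genes. Since these levels chose the genes, nothing is read from those counts. The fitted log2 differences ran from 1.75 to 6.73 with a median of 4.35, beside a median of -0.00 over all tested genes. In bulk RNA, more cells carrying a transcript and more of it per cell cannot be told apart.

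**Figure D1:**
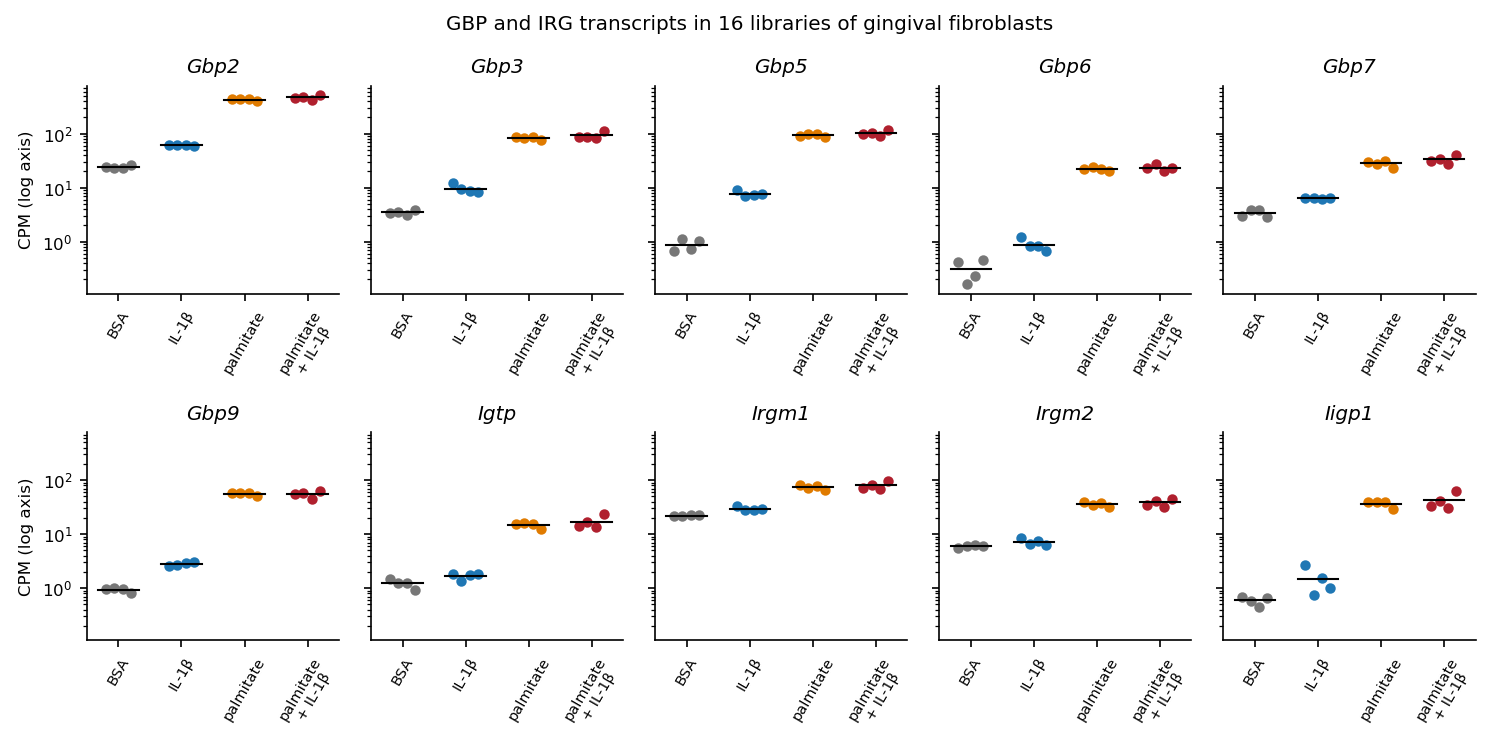
Level of each of the 10 transcripts in CPM on a log axis, with 1 point per library, colours for the 4 conditions and a black line at the mean of 4 libraries. In every panel all palmitate and palmitate + IL-1β points lie above all BSA and IL-1β points, and the points of palmitate and palmitate + IL-1β overlap.

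Gbp2, a lipid-anchored GBP that is recruited to microbial vacuoles, was the most abundant of the set in every condition. Its level was 24.6, 23.1, 23.4 and 25.8 CPM in the BSA libraries, 60.8, 60.6, 62.6 and 58.8 in IL-1β, 438, 438, 431 and 397 in palmitate and 466, 475, 428 and 511 with both. The libraries of BSA, IL-1β and palmitate formed separate steps, and those with palmitate overlapped whether or not IL-1β was present. Gbp2 rose 17.6-fold with palmitate (log2 difference 4.14 ± 0.06 SE) and 2.51-fold with IL-1β (1.33 ± 0.05).

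Gbp5, another lipid-anchored GBP, known for promoting assembly of the NLRP3 inflammasome, showed the largest fold of the set for either agent. It was near the bottom in BSA, at 0.681, 1.10, 0.725 and 1.01 CPM, reached 9.00, 6.91, 7.47 and 7.5 CPM with IL-1β, 90.9, 98.4, 98.9 and 86.4 with palmitate, and 97.1, 101, 90.8 and 119 with both. Each BSA library held 19 to 34 Gbp5 reads, so the control level rests on few counts. The rise was 106-fold with palmitate (6.73 ± 0.13) and 8.74-fold with IL-1β (3.13 ± 0.17), and the libraries of these conditions did not overlap.

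Gbp3 and Gbp7 are the other 2 genes of the chromosome 3 cluster. Gbp3 ranged from 3.09 to 3.88 CPM in BSA, 8.16 to 12.2 in IL-1β, 77.2 to 86.8 in palmitate and 84.6 to 114 with both, a 23.8-fold rise with palmitate (4.57 ± 0.13). Gbp7, which is linked to assembly of the phagocyte oxidase, ranged from 2.90 to 3.89 CPM in BSA, 6.27 to 6.51 in IL-1β, 23.1 to 31.4 in palmitate and 27.4 to 41.1 with both. Its 8.26-fold rise with palmitate (3.05 ± 0.14) was the smallest among the 6 GBPs, and so was its 1.87-fold rise with IL-1β (0.90 ± 0.17).

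Gbp6 and Gbp9, of the chromosome 5 cluster, were low in BSA. Gbp9 was 0.977, 1.00, 0.954 and 0.804 CPM in BSA, 2.62, 2.66, 2.91 and 3.11 in IL-1β, 57.9, 57.2, 58.9 and 50.2 in palmitate and 55.5, 57.1, 45.5 and 63.3 with both. That is 59.6-fold with palmitate (5.90 ± 0.12) and 3.01-fold with IL-1β (1.59 ± 0.18). Gbp6 ranged from 0.162 to 0.454 CPM in BSA, on 5 to 14 reads a library, 0.663 to 1.23 CPM in IL-1β, 20.7 to 24.2 in palmitate and 20.8 to 27.0 with both. Palmitate raised it 69.6-fold (6.12 ± 0.16). A share of 34.1% of the 150-base windows of Gbp6 transcripts also occurs in its neighbour Gbp10, so part of its sequence could not be counted or could be split between the pair.

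The 3 Irgm genes rose 3.37-fold to 12-fold with palmitate, against 8.26-fold to 106-fold for the 6 GBPs, and in BSA Irgm1 was second to Gbp2. Irgm1 was 22, 21.9, 22.2 and 22.2 CPM in BSA, 32.7, 27.8, 28.2 and 29.6 in IL-1β, 82.3, 71.4, 77.9 and 66.8 in palmitate and 73.2, 83, 69 and 97.7 with both. The 4 BSA libraries were almost equal, and its 3.37-fold rise with palmitate (1.75 ± 0.10) was the smallest of the 10. Irgm2 ranged from 5.53 to 6.33 CPM in BSA, 6.42 to 8.59 in IL-1β, 31.8 to 39.8 in palmitate and 32.2 to 45.6 with both, a 6.04-fold rise with palmitate (2.59 ± 0.11).

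Igtp was scarcer than its neighbour Irgm2. Its level was 1.45, 1.26, 1.26 and 0.944 CPM in BSA, 1.84, 1.37, 1.77 and 1.86 in IL-1β, 15.3, 16.0, 15.4 and 12.4 in palmitate and 14.0, 16.7, 13.8 and 23.4 with both. The BSA and IL-1β libraries overlapped. With palmitate it rose 12.0-fold (3.58 ± 0.19). Igtp and Irgm2 share 3.55% and 4.33% of their exon bases on the same strand, and reads there are ambiguous between them.

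Iigp1, the effector IRG of the set, had the largest standard errors of the set. Its level was 0.681, 0.582, 0.458 and 0.664 CPM in BSA, 2.7, 0.742, 1.52 and 0.994 in IL-1β, 29.3 to 40 in palmitate (lowest in replicate 12) and 33.0, 41.1, 31.1 and 63.9 with both. Palmitate raised it 61.3-fold (5.94 ± 0.38). The IL-1β libraries all lay above the BSA libraries but were widely spread, and the 2.46-fold fitted difference (1.30 ± 0.66) was not called.

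With IL-1β alone, the genes called were the 6 GBPs and Irgm1. Of the 10 genes 7 were called higher with IL-1β than with BSA, where 10.1% of tested genes were called higher, and 5 of those 7 (Gbp2, Gbp3, Gbp5, Gbp6 and Gbp9) also exceeded 2-fold, as 0.902% of tested genes did. The 6 GBPs were all called, with folds from 1.87 to 8.74. Of the 4 IRGs only Irgm1 was called, at 1.34-fold (0.42 ± 0.10). Igtp (1.38-fold, 0.47 ± 0.27), Irgm2 (1.22-fold, 0.29 ± 0.14) and Iigp1 were not. In 9 of 10 genes, all but Igtp, every IL-1β library lay above every BSA library, as in 11.1% of tested genes. These counts too describe genes whose levels chose them. The 95% intervals of the uncalled genes reached 1.03 for Igtp, 0.57 for Irgm2 and 2.73 for Iigp1 on the log2 scale, so a response as large as that of several GBPs lay within the interval of Iigp1. DESeq2, and a fit of the 8 compared libraries alone, called Iigp1 higher as well, and Irgm2 was called with no expression filter.

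**Figure D2:**
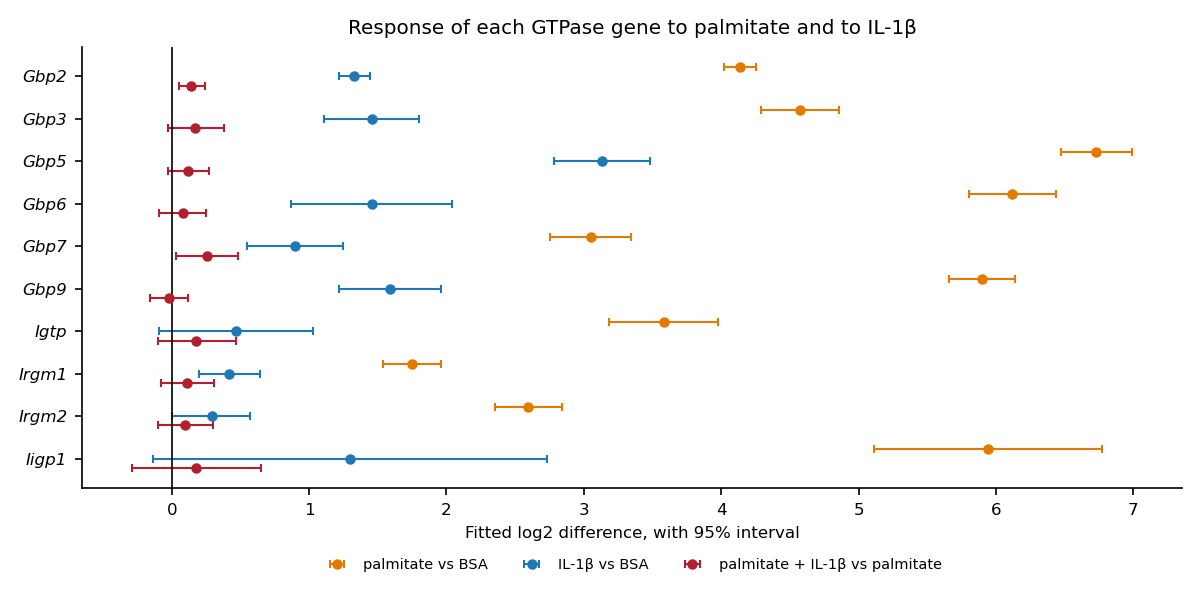
Fitted log2 difference of each gene with its 95% interval, for palmitate against BSA (orange), IL-1β against BSA (blue) and palmitate + IL-1β against palmitate (red). The palmitate differences lie between 1.75 and 6.73, those of IL-1β between 0.29 and 3.13, and those of adding IL-1β to palmitate between -0.02 and 0.26.

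Palmitate exceeded IL-1β for every gene. All 10 were called higher with palmitate than with IL-1β (16.5% of tested genes were), with log2 differences from 1.33 for Irgm1 to 4.66 for Gbp6. All 10 were called higher with palmitate + IL-1β than with IL-1β (18.9% of tested genes), from 1.45 for Irgm1 to 4.82 for Iigp1, and all 10 were called higher with palmitate + IL-1β than with BSA (24.8% of tested genes), from 1.87 to 6.85. These comparisons share libraries with those above.

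Adding IL-1β to palmitate gave no call among the 10 by the same test. With edgeR 0 of 10 were called, against 9.81% of tested genes called in either direction and 5.71% called higher. DESeq2 also called 0 of 10, and 2 genes (Gbp2 and Gbp7) had an unadjusted p under 0.05. The log2 differences ran from -0.02 for Gbp9 to 0.26 for Gbp7, with a median of 0.13, and 9 of 10 were above 0. The 95% intervals spanned -0.29 to 0.65 over the genes (both ends from Iigp1). In each gene the libraries of palmitate and palmitate + IL-1β overlapped.

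The call of 0 depended on single libraries. Without palmitate + IL-1β replicate 15, the lowest library of that condition, Gbp2 and Gbp7 were called and the median difference was 0.18. Without replicate 16, the highest, none was called, the median was 0.03 and the range was -0.09 to 0.15. Gbp2 alone was called without BSA replicate 3 or without IL-1β replicate 8, which left the palmitate libraries as they were, and Gbp7 alone was called with no expression filter.

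The log2 difference with IL-1β in the presence of palmitate, minus that in its absence, was fitted below 0 for all 10 genes and called for 5, where 1.83% of tested genes were called below 0 and 1.99% in either direction. It is computed from the levels that chose the genes, so nothing is read from that count. It was -3.01 ± 0.19 for Gbp5, -1.61 ± 0.19 for Gbp9, -1.38 ± 0.30 for Gbp6, -1.28 ± 0.19 for Gbp3 and -1.18 ± 0.07 for Gbp2. It was not called for Gbp7 (-0.64 ± 0.20), Irgm1 (-0.31 ± 0.14), Igtp (-0.28 ± 0.30), Irgm2 (-0.19 ± 0.17) or Iigp1 (-1.12 ± 0.70). Gbp7 was called as well with DESeq2, with no expression filter, without palmitate replicate 12 and without palmitate + IL-1β replicate 16, and the filter and replicate 16 also brought in Irgm1.

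For each gene the level with both agents was compared with the BSA level plus the increments of palmitate and of IL-1β, all as means of CPM. The gap ran from -2.57 CPM for Gbp9 to 7.60 CPM for Gbp2, and in 10 of 10 genes it was smaller than its own standard error, built from the spread of the 4 conditions. For Gbp2 the sum was 462 CPM and the level with both was 470 CPM (gap 7.60 ± 19.7 SE). For Gbp5 the gap was 1.5 ± 6.67 CPM. In 7 of 10 genes the increment of IL-1β alone was smaller than that standard error, so a missing increment and a full one could not be separated at this spread. The other 3 were Gbp2 (increment 36.5 CPM), Gbp5 (6.84 CPM) and Irgm1 (7.5 CPM), and for the last 2 the increment barely exceeded the error.

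**Figure D3:**
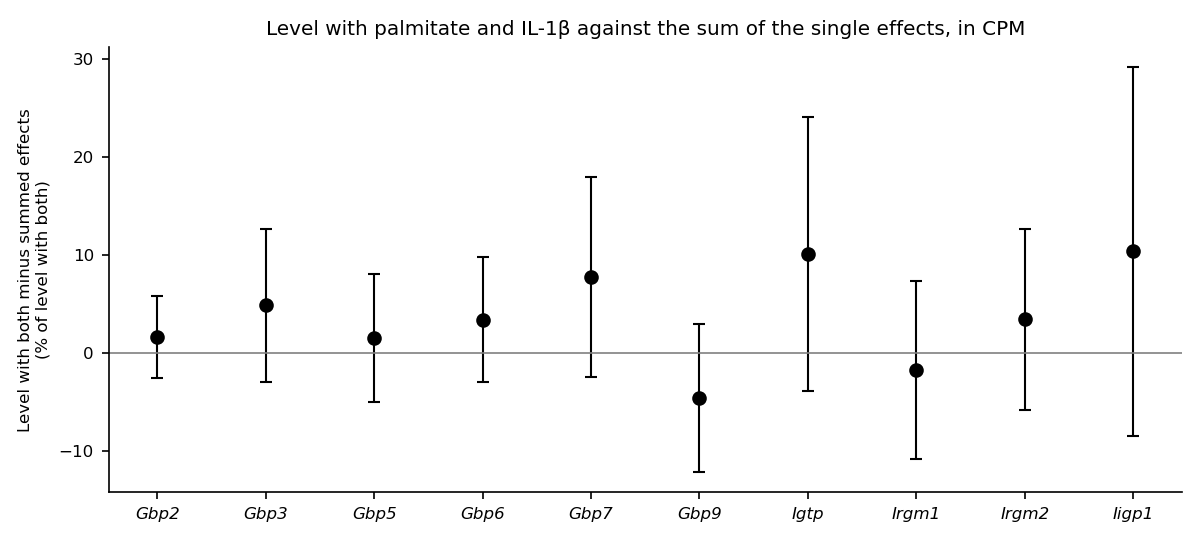
Mean level with palmitate + IL-1β minus the sum of the BSA level and both single increments, as a percent of the level with both, with the standard error from 4 libraries in each of 4 conditions. The points lie between -4.64% for Gbp9 and 10.4% for Iigp1, and every error bar crosses 0.

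Irf1, a transcription factor that drives GBP genes, is given on the same scale. It was 19.3 ± 0.598 CPM in BSA, 37.3 ± 1.46 in IL-1β, 44.0 ± 2.93 in palmitate and 49.4 ± 0.647 with both, 12.5 CPM below the BSA level plus both single increments (SE 1.69).

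Levels between genes were compared per kilobase of annotated exon. In BSA the order was Gbp2, Irgm1, Irgm2, Gbp3, Gbp7, Igtp, Gbp5, Gbp9, Iigp1 and Gbp6, from 9.45 ± 0.480 down to 0.0463 ± 0.0209 CPM per kb, and Gbp5, Gbp9 and Iigp1 overlapped their neighbours. In palmitate it was Gbp2, Gbp3, Gbp5, Irgm1, Irgm2, Iigp1, Gbp9, Gbp7, Gbp6 and Igtp, from 166 ± 7.76 to 3.24 ± 0.351 CPM per kb. There Gbp5, Irgm1 and Irgm2 overlapped in sequence, as did Iigp1, Gbp9 and Gbp7, and Gbp6 and Igtp. Gbp5 moved from the seventh place to the third, and Igtp from the sixth to the last.

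The makeup of the summed transcripts differed between conditions. Gbp2 supplied 57.1 ± 1.52% of the summed CPM per kb in BSA, 66.4 ± 2.28% in IL-1β, 68.5 ± 0.751% in palmitate and 68.7 ± 1.88% with both. Irgm1 supplied 21 ± 0.494% in BSA, 13.0 ± 0.684% in IL-1β, 4.83 ± 0.277% in palmitate and 4.72 ± 0.292% with both. Gbp5 went from 0.729 ± 0.171% in BSA to 5.29 ± 0.227% in palmitate. The exon length is the union over all isoforms, which can understate the level of genes with long, rarely used exons. On the same strand, 25.4% of the exon bases of Gbp6 overlap Gm43302 and 10.6% of those of Gbp7 overlap Gm43802. Both overlapping genes had 0 counts in all 16 libraries. Reads there may be ambiguous and left uncounted, which can understate Gbp6 and Gbp7 too.

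**Figure D4:**
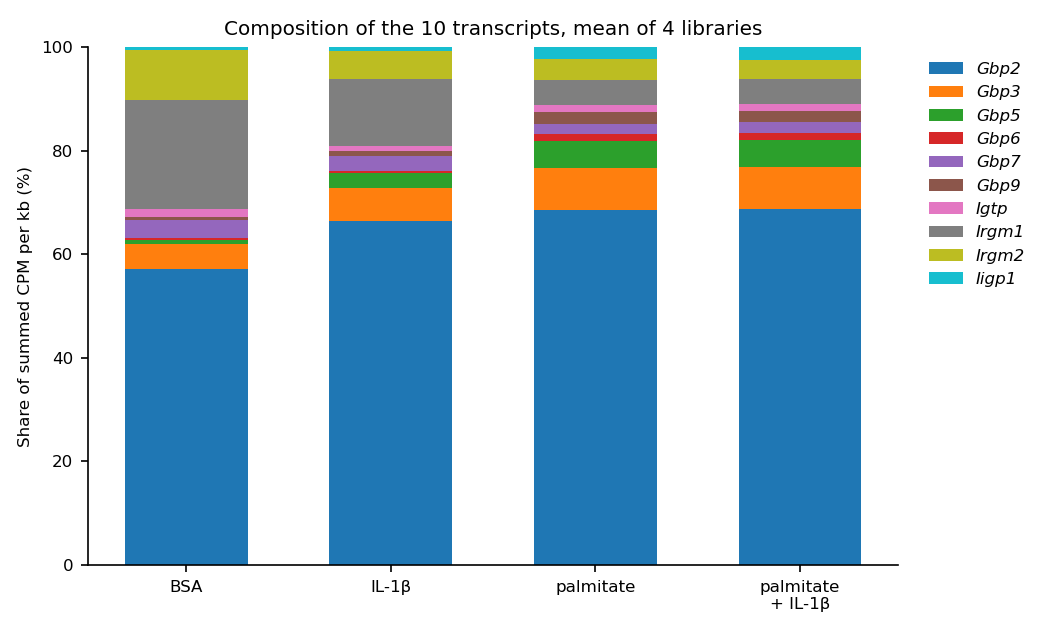
Share of each gene in the summed CPM per kb of the 10 transcripts, as the mean of 4 libraries in each condition. The share of Irgm1 falls from 21% in BSA to 4.83% in palmitate, and the bars of palmitate and palmitate + IL-1β differ little.

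Within a condition, some libraries stood above or below the others across the set. Palmitate + IL-1β replicate 16 was above the mean of its condition in 10 of 10 genes, by a median of 0.27 on the log2 scale, while replicate 15 was above it in 0 of 10 (median -0.23). Palmitate replicate 12 was above its mean in 0 of 10 (median -0.16), IL-1β replicate 5 in 9 of 10 (0.19) and IL-1β replicate 6 in 0 of 10 (-0.08). The BSA libraries stayed within a median of 0.05 of their mean.

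**Figure D5:**
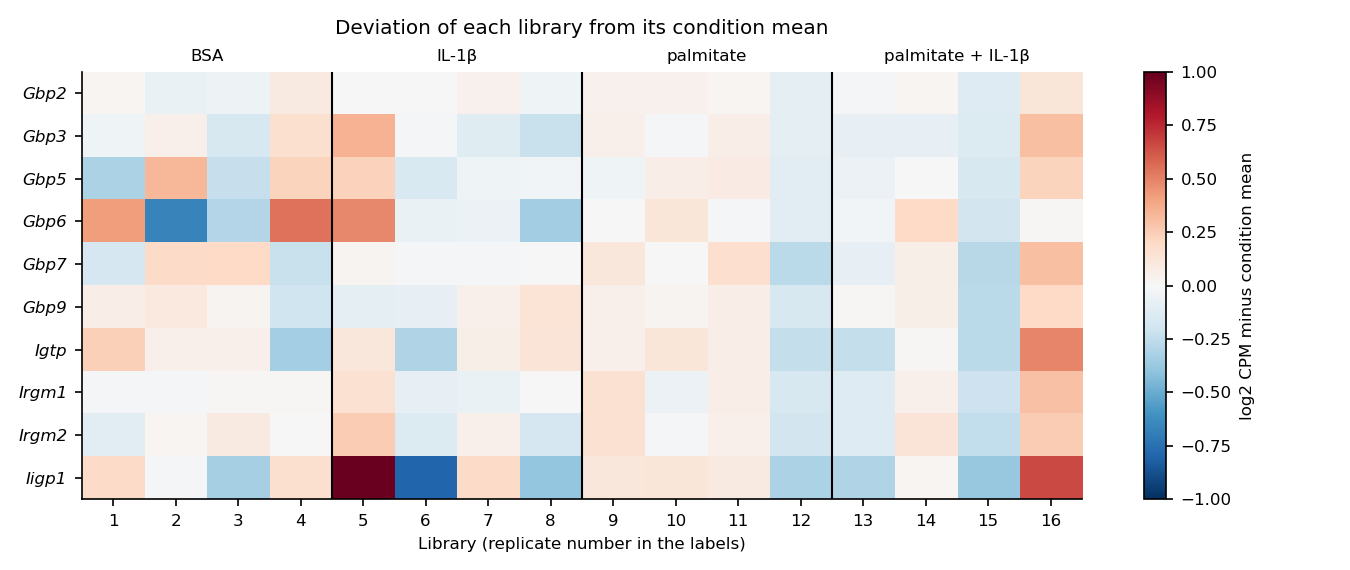
Deviation of log2 CPM of each gene (rows) in each library (columns) from the mean of its condition, red above and blue below. Column 16 is red or near white in every row, columns 12 and 15 are blue in every row, and the most extreme cell is Iigp1 in IL-1β replicate 5, at 0.99.

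Over the 45 pairs of genes, these deviations correlated with a median Pearson r of 0.538 (16 libraries, 42 pairs above 0). The highest was 0.873 for Irgm1 with Irgm2, and the lowest was -0.329 for Gbp6 with Gbp7. The levels themselves, which carry the conditions, correlated with r from 0.945 (Gbp5 with Irgm2) to 0.998 (Gbp2 with Gbp3). The points share conditions, libraries and depth, so these values are descriptions. Other interferon-stimulated genes moved with the same libraries. On a comparison list of such genes 18 were tested. Of these 18 were called higher with palmitate, beside 19.8% of all tested genes, and 7 with IL-1β, beside 10.1%. With both agents against palmitate 0 were called, beside 9.81% called in either direction. Of the 18, 17 lay above their mean in palmitate + IL-1β replicate 16, by a median of 0.53. In replicate 15, 0 did (median -0.26). What set these libraries apart was not tested.

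Genes outside the set were ranked by the Pearson r of their log2 CPM with the mean standardised level of the 10, over 16 libraries and 11817 genes with an average log2 CPM of at least 1. The first was Ifit1, which encodes an antiviral RNA-binding protein, with r = 0.9975 and levels of 6.59 CPM in BSA, 16.1 with IL-1β, 262 with palmitate and 295 with both agents. Parp9 (0.9970), Slc7a2 (0.9966), Cebpb (0.9960) and Cd44 (0.9954) followed. The 4 conditions dominate these values.

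The other GBP, IRG and related interferon-inducible GTPase genes that could be tested were mostly higher with palmitate. The table held 24 such genes and 19 passed the filter. Of these 18 were called higher with palmitate than with BSA, beside 19.8% of all tested genes, and 0 lower (edgeR), with a median log2 difference of 4.93 over the 19. Some of the 19 had almost no reads without palmitate, such as Gbp10 (2 in BSA, 3 in IL-1β) and Gm5431 (0 and 3). Such genes could pass the filter only through libraries with palmitate. That partly fixes the count and the median, so nothing is read from either. With IL-1β 4 were called higher (median 0.64), beside 10.1% of all tested genes. With IL-1β added to palmitate 0 were called, beside 9.81% (1, Irgq, at an unadjusted p under 0.05, and 0 with DESeq2). The exception to the palmitate response was Irgq, an IRG relative linked to autophagy, at 49.9 ± 1.91 CPM in BSA and 53.5 ± 1.25 in palmitate (log2 difference 0.10 ± 0.05, adjusted p = 0.0933).

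Tgtp1, an effector IRG outside the set, rose from 0.152 ± 0.0854 to 1.13 ± 0.303 CPM with IL-1β (2.87 ± 0.41, edgeR adjusted p = 1.6e-05) and to 9.70 ± 0.567 with palmitate (5.97 ± 0.27, adjusted p = 7.7e-15). Ifi47 rose 2.16-fold with IL-1β (1.11 ± 0.22, adjusted p = 5.7e-04) and 12.9-fold with palmitate (3.69 ± 0.17). Tgtp2 rose with palmitate (6.57 ± 0.38), and its IL-1β response (2.21 ± 0.70, adjusted p = 0.0468) lost its call when any of the BSA or IL-1β libraries was left out, with adjusted p up to 0.125. Tgtp1 and Tgtp2 share 66.6% and 68.4% of their 150-base windows with family genes, mainly each other, so their counts are uncertain.

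Several relatives were almost silent in BSA. Gbp11 went from 2 reads in the 4 BSA libraries to 188 in palmitate, a ratio of 69 with an exact 95% counting interval of 18.8 to 574. Gbp10 went from 2 to 100 reads (36.7, interval 9.90 to 307), Gbp4 from 7 to 586 (61.4, 29.6 to 154) and Gm4841 from 2 to 229 (84, 23 to 698). Gm5431 had 0 reads in BSA and 83 in palmitate, at least 5.07-fold higher against a floor of 3 counts per library. The remaining called genes rose with palmitate by fitted folds from 3.49 (9930111J21Rik2) to 48.2 (Mx1), with F830016B08Rik, Gm4951, 9930111J21Rik1, Gm12185, Gm12250, Gvin1, Gvin2 and Mx2 between them. Of their windows, 95% in Gvin1 and 91.2% in Gvin2 are shared with each other, as are 44.6% of those of Gbp10 with Gbp6, and 64.5% and 42.8% of those of 9930111J21Rik1 and 9930111J21Rik2 with relatives, so these counts are uncertain too, as are those of Gm12250, whose exons lie wholly within those of a second annotated gene of the same name and strand. Gbp2b, Gbp8, Irgc1, Gm12187 and Gvin3 were too low to be tested.

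The interferon pathway above these genes showed receptors and signalling components but almost no ligand reads. Ifng, Ifnl2, Ifnl3, Ifna1, Ifna4 and Ifne had 0 counts in all 16 libraries, and Ifnb1 and Ifna2 had 1 count each, so none of these 8 ligands was detectable above the floor, and other interferon genes were not examined. Of 22 tested pathway genes 19 were called higher with palmitate, beside 19.8% of all tested genes, and 1 lower (Pias1), with a median log2 difference of 0.76. With IL-1β 8 were called higher (median 0.22), beside 10.1%. All 4 receptor subunits rose with palmitate. The IFN-γ receptor chains Ifngr1 (0.61 ± 0.07, adjusted p = 9.4e-09) and Ifngr2 (0.72 ± 0.05, adjusted p = 6.8e-13) also rose with IL-1β (0.35 ± 0.07 and 0.39 ± 0.05), all by edgeR.

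Irf1 rose with palmitate (1.18 ± 0.05, edgeR adjusted p = 2.2e-18) and with IL-1β (0.95 ± 0.05, adjusted p = 5.6e-15), and by a further 0.17 ± 0.05 when IL-1β was added to palmitate (adjusted p = 0.0199). That last call was lost with no expression filter (adjusted p = 0.101) and without any one of palmitate replicates 10, 11 or 12 or palmitate + IL-1β replicates 13 or 14 (adjusted p from 0.0554 to 0.1). Jak2, which with Jak1 serves the IFN-γ receptor as a kinase, rose 2.08-fold with palmitate. Usp18, which restrains type I interferon signalling, rose 14.7-fold with palmitate (3.88 ± 0.26).

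Genes whose products work with GBPs and IRGs split in direction. Of 28 tested, 11 were called higher and 5 lower with palmitate, where 37.3% of all tested genes were called in either direction, and with IL-1β 6 were higher and 1 lower (Gabarap), where 15.1% were called. Casp4, the caspase that senses bacterial lipopolysaccharide once GBPs expose it, went from 4.40 ± 0.369 CPM in BSA to 12.0 ± 0.653 in IL-1β, 23.7 ± 1.86 in palmitate and 30.1 ± 2.12 with both. It was called higher with palmitate + IL-1β than with palmitate (0.35 ± 0.06, edgeR adjusted p = 3.3e-04). Gsdmd, the pore-forming protein that Casp4 cleaves, rose with palmitate (0.83 ± 0.06, adjusted p = 1.8e-13). Nlrp3 went from 3 reads in the BSA libraries to 41 in palmitate (ratio 10.0, exact 95% counting interval 3.20 to 50.6) and 32 in IL-1β (12.1, 3.77 to 61.5).

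The ATG8 conjugation genes are needed for IRGs and GBPs to reach microbial vacuoles. Of 10 tested 2 were higher and 4 lower with palmitate, all between -0.27 and 0.25 on the log2 scale. The 6 genes of prenylation and the processing that follows it make the lipid-anchored end of Gbp2 and Gbp5. Among these 6, 1 was higher (Pggt1b, 0.24 ± 0.05) and 1 lower (Fnta, -0.24 ± 0.06). Over all tested genes 37.3% were called in either direction, so nothing is read from these counts. Pias1, Gabarap, Pggt1b and Fnta were named after their values were seen.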

How the data were processed

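The submitters' processing notes name Trimmomatic 0.39, STAR 2.7.10a, HTSeq 2.0.9 and the build GRCm39. The deposited values are raw counts with no normalization or filter, and 5 summary rows (18.3% to 21.4% of each library) were left out. The library kit is uncertain: a total RNA kit that keeps strand is given in the labels, but oligo(dT)-primed cDNA in the methods, and this decides which RNAs were captured. Reads with more than 1 placement sit in a summary row, not in genes, which lowers near-identical genes.

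All 16 libraries were modelled jointly, with 1 mean for each condition, in edgeR 4.0.16 (R 4.3.3), using glmQLFit with robust estimation, TMM and filterByExpr (minimum count 10, minimum total 15, 16306 genes kept). Genes were called at a Benjamini-Hochberg adjusted p under 0.05 over all tested genes. Levels are CPM on TMM-scaled totals, and log2 CPM used a prior count of 2. The rule for named genes took every member and relative, and from the pathway and partner lists the called gene with the largest difference and that with the smallest p in each contrast with BSA, plus a fixed few, among them Irf1, Ifng, Ifnb1, Ifngr1, Ifngr2, Casp4 and Gsdmd, and the 5 genes most like the set. A gene of that few is not reported here. The members and lists were chosen with earlier results of these data known.

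The alternatives left out each library in turn, fitted only the libraries compared, dropped the expression filter, scaled by upper quartile, or used DESeq2 1.42.0. On simulated counts for palmitate against BSA (16065 genes), edgeR recovered 193 of 198 changed genes with the right sign and called 13 unchanged genes. The simulation gave every gene the same variation between libraries beyond counting error, the common value of the fit (6.08%). Its rate does not carry over to genes that varied more, such as Iigp1 in IL-1β (SD 58.4% of the mean). Positions and exon lengths came from GENCODE vM39, which holds 56323 of the 56941 genes, while the promoter entries came from RefSeq on GRCm38.p6.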

Additional observations from a re-analysis of the deposited data

Results flagged for a closer look

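A library far from the other 3 of its condition was found in 10 of 116 groups examined. The criterion flags about 1 in 20 groups of independent, normally spread values. These groups share libraries and include low counts with ties at 0, so that rate does not carry over and no excess is read from the count. For the set itself, Gbp3 in palmitate + IL-1β replicate 16 was 114 CPM against 84.6 to 87.9 in the others, and Iigp1 in palmitate replicate 12 was 29.3 CPM against at least 39 in the others. Among relatives, replicate 16 was also apart for Gm5431 (1.22 CPM) and Gvin2 (0.847 CPM), BSA replicate 4 for Tgtp1 (0.280 CPM) and Mx1 (0.384 CPM), BSA replicate 3 for Gm4841 (0.0763 CPM) and Gvin1 (0.191 CPM), IL-1β replicate 5 for F830016B08Rik (0.655 CPM) and IL-1β replicate 6 for Gvin1 (0.0781 CPM). Those of Gm4841 and Gvin1 rest on single libraries with reads beside others at 0.

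The IL-1β response on the log2 scale differed with and without palmitate, by the interaction term of the edgeR fit, for 5 genes of the set: Gbp2 (-1.18), Gbp3 (-1.28), Gbp5 (-3.01), Gbp6 (-1.38) and Gbp9 (-1.61). These genes were chosen with the same levels in view, so the values are a description. On the CPM scale the gap from additivity was below its standard error in 10 of 10 genes of the set. In 7 of 10 the whole IL-1β increment was also below that error, and for Gbp5 and Irgm1 it barely exceeded it. Additivity could therefore hardly be judged at this spread, and nothing is read from that count. It also differed for Tgtp1 (-2.76), Casp4 (-1.09), Ifi47 (-0.99, a call lost without any one of 5 libraries), Irf1 (-0.78), Slc7a2 (-0.58), Cebpb (-0.49), Parp9 (-0.42), Ifngr2 (-0.36) and Cd44 (-0.34). Each value is below 0, as were most interaction calls over all tested genes (1.83% called below 0, 1.99% in either direction). Slc7a2, Cebpb, Parp9 and Cd44 were picked because their pattern was most like that of the set. Their sign follows from that choice and nothing is read from it.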

How the results depend on the processing

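No paired analysis was possible because no replicate number is shared between conditions. Over these alternatives no called difference changed sign, and 1389 of 1390 recomputed log2 differences of the 10 genes moved by less than the SD between libraries (the exception was Gbp2 in palmitate + IL-1β against BSA, 4.2 with upper-quartile normalization). Of 538 recomputed counts and sums 12 moved. The count of the 10 genes called for palmitate + IL-1β against palmitate was 0, became 1 with no expression filter, and was 0 to 2 over left-out libraries. The count of relatives called with IL-1β was 4 and ran from 2 (without BSA replicate 1) to 5 over left-out libraries. The count of interferon pathway genes called for palmitate + IL-1β against palmitate was 2 (Irf1 and Socs3, the latter named after its values were seen), became 1 with no expression filter, and was 0 (without palmitate replicate 10) to 2 over left-out libraries. The summed level in BSA was 65.3 CPM with upper-quartile normalization. Of 1822 recomputed differences of other named genes 25 lost their call. For IL-1β against BSA these were Tgtp2 in 10 settings, Ifit1 in 2 (without BSA replicate 2 or IL-1β replicate 5), Gbp11 without BSA replicate 1, and Gsdmd with upper-quartile normalization (edgeR adjusted p = 0.053). For palmitate + IL-1β against palmitate it was Irf1 in 6 settings, and for the interaction Ifi47 in 5. With 4 libraries per condition, low-count genes such as Iigp1 and Gbp6 in BSA and IL-1β carry wide intervals.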
